A study of Mus musculus with 6 samples.

Results

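The genes described here are Trp53, which encodes the tumour suppressor p53, and known targets of p53 in growth arrest, cell death, DNA repair and metabolism. They were listed by name, 34 in all, from knowledge of the pathway and with earlier results of these data known. They were measured in mouse embryonic stem (ES) cells on Affymetrix arrays whose table held 18193 genes. A gene was read from its probe set with the highest mean over the 6 arrays, among probe sets annotated with that gene's symbol alone. By this rule 31 members were measured, while Trp53, Bax and Gdf15 had no such probe set and were not analysed here. Protein levels of p53, its binding to DNA and its activity were not measured.

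RNA from 3 haploid lines was compared with RNA from 3 diploid samples, with 1 array each. The haploid lines were HAP1 at passage 24 and HAP2 at passage 21, both with the strain label F1 CBAxB6, and HTG1 at passage 11, labelled mixed transgenic. The diploid samples were titled biological replicates 1 to 3, were described as male, and had the strain label 129Sv (diploid 1 and 2) or 129 (diploid 3). All cultures grew in 2i medium, which inhibits the kinases MEK and GSK3, and RNA was taken on day 2 after passaging. Strain and the stated sex differed together with ploidy and cannot be told apart from it, and a passage was given for the haploid lines alone. Each haploid array stands for 1 line, and the labels do not say whether the diploid replicates were separate lines or cultures of one, so p-values measure the spread between these arrays, which may in part be technical.

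The p53 protein is a transcription factor that is kept low by the ubiquitin ligase Mdm2 and accumulates after DNA damage and other stress. It binds paired copies of a short degenerate decamer and raises transcription of genes that stop the cell cycle, trigger death receptors or mitochondrial apoptosis, repair DNA and adjust metabolism. Mdm2 and the phosphatase Ppm1d are themselves targets and close negative feedback loops. In ES cells p53 is also known to lower the pluripotency factor Nanog after DNA damage, which favours differentiation.

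RefSeq promoter windows (build GRCm38.p6, 250 bases before to 50 after each annotated start) were found for 26 of the 34 members. Ddb2, Perp, Pmaip1, Rrm2b, Tnfrsf10b, Trp53inp1, Xpc and Zmat3 had no entry. The windows were searched for the p53 decamer consensus, 10 bases that read alike on both strands, with overlapping matches counted. It was found in 12 of the 26 members (46.2%), against 9.55% of the 27025 genes with a window. The members were listed as p53 targets, so this share describes the list and no test was made. Among members that rose in the haploid lines, 4 of the 10 with a window held a decamer (40%), as did 6 of the 13 measured members that did not pass (46.2%). A full site, here 2 decamers at most 13 bases apart, was found in the window of 1 member, Cdkn1a, and in 0.074% of all genes with a window. It lies at an upstream RefSeq start, 2790 bases before the second Cdkn1a start, and spans bases -73 to -42 with a spacer of 12 bases. The search allowed no mismatch. Directly after the second decamer stand the letters tgacatgttc, which miss the consensus at their first base alone and were not counted. Which of these stretches p53 binds, if any, is not shown here. A match is a description of letters and not evidence of binding, and windows without one show only that the letters are not there. The 250 bases upstream of the start are shown for Cdkn1a, as the member with a full site, and for the 4 members that rose and held a decamer. Decamers are in capitals and the strand is that of the gene.

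Cdkn1a, chr17:29090729-29090978, plus strand: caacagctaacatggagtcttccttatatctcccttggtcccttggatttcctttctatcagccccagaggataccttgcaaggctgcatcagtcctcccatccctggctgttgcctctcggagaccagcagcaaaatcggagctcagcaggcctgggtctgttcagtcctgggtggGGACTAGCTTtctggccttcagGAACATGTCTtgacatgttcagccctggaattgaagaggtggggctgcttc
Ddit4l, chr3:137623422-137623671, plus strand: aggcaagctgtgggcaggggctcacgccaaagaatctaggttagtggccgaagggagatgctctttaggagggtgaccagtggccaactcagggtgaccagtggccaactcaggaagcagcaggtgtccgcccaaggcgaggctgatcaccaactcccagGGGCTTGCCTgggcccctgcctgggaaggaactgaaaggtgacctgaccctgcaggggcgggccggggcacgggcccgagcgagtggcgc
Mdm2, chr10:117710759-117711008, minus strand: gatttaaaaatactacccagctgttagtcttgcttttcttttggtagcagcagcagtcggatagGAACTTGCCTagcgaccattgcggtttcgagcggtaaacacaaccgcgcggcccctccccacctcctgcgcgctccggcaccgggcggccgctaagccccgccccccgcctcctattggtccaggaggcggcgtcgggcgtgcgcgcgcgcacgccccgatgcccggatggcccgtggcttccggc
Polk, chr13:96519188-96519437, minus strand: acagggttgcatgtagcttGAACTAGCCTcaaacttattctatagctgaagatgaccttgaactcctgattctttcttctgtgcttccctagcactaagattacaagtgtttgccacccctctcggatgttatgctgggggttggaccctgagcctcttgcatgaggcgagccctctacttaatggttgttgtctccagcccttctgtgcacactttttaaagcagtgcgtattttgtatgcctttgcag
Sesn1, chr10:41887189-41887438, plus strand: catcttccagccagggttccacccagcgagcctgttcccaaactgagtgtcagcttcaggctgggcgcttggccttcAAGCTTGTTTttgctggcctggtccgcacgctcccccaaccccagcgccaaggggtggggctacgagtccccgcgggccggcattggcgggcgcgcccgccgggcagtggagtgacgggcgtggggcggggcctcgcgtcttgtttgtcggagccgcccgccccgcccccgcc

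The decamers in these windows begin at base -90 of Ddit4l, -186 of Mdm2, -231 of Polk and -173 of Sesn1, counted from the start of transcription. The Polk and Sesn1 windows belong to 1 of 2 annotated starts of each gene, in both cases the downstream one. The other start lies 23392 bases upstream for Polk and 76865 for Sesn1, and its window held no decamer. Mdm2 is also known for p53 sites in its first intron, which these windows do not cover. Ei24, which did not pass, held the decamer GGGCATGCCC directly before its start.

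As a group the p53 targets were higher in the haploid lines, by a modest amount, and none fell. Of the 31 measured members, 13 rose and 0 fell in limma at an adjusted p of 0.05, which is 41.9% of them. The list was chosen with earlier results of these data known, so this share describes the list and no set test was made. Across all 18193 genes 14.9% passed, 7.92% as higher and 6.96% as lower. The median difference, haploid minus diploid, was 0.43 (log2) for the members and -0.03 for all genes. Of 31 members 25 lay above 0 (80.6%, against 45.8% of all genes). Most members were bright, with 28 above the median level of all genes. Among all genes above that level 12.7% passed as higher, the median difference was 0.04 and 54.6% lay above 0. The 3 haploid values lay above all 3 diploid values for 17 members (background 17.7% of genes) and below them for 1, Sesn2 (background 20.2%). The 13 increases ran from 1.33-fold to 2.63-fold, 4 of them at 2-fold or more. Only relative changes are seen: RMA sets all arrays to about 1 distribution, and in bulk RNA fewer cells of a type cannot be told from less RNA per cell.

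**Figure D1:**
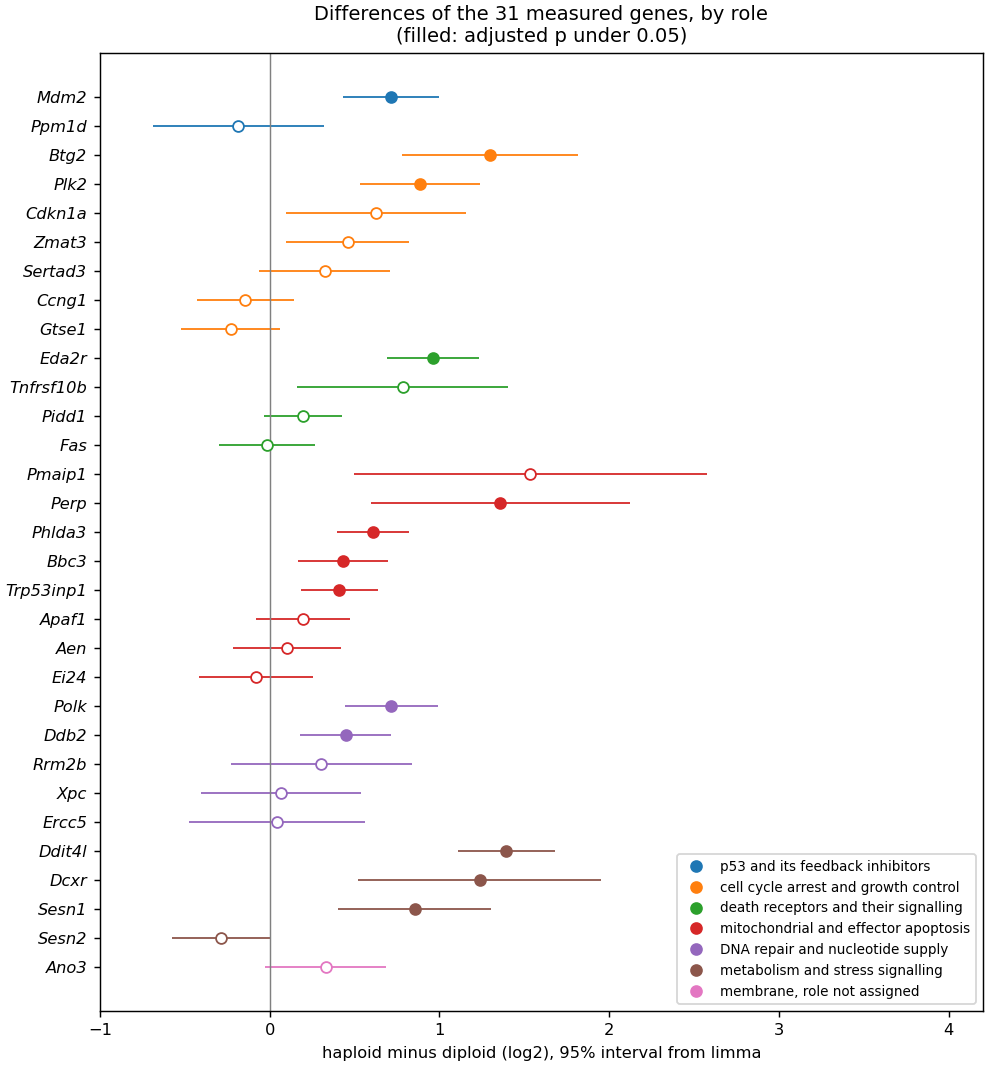
Haploid minus diploid difference (log2) of each measured gene with its 95% interval from limma (n = 3 arrays per group), coloured by role, with filled points where the adjusted p was under 0.05. The 13 filled points all lie to the right of 0, and 6 of the 31 points lie to the left of it.

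Of the 13 increases, 4 held without any 1 array: Ddit4l, Eda2r, Phlda3 and Plk2. The other 9 missed the threshold without at least 1 array, and all 13 kept a positive difference in each omission. Without diploid 3, 4 of the 13 still passed, without diploid 2 there were 6, and without HAP2 or HTG1 8 each. The number of members that passed as higher, counted afresh, was then 4 (12.9%) without diploid 3 and 6 (19.4%) without diploid 2, while the share of all genes that passed as higher dropped to 3.14% and 3.73%. It was 8 without HTG1, 9 without diploid 1, 9 without HAP2 and 13 without HAP1. Fewer arrays leave fewer degrees of freedom, which applies to each omission.

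Of the feedback inhibitors, Mdm2 rose and Ppm1d did not pass. Mdm2 stood at 11.45, 11.51 and 11.79 (log2) in HAP1, HAP2 and HTG1 and at 10.79, 10.96 and 10.87 in diploid 1, 2 and 3. The groups were apart, with HTG1 the highest. The increase of Mdm2 was 1.64-fold (log2 0.71 ± 0.12, SE, n = 3 arrays per group, limma adjusted p = 0.0114), and later values after ± are SEs of the same kind. Without diploid 3 its limma adjusted p was 0.0534. The probe set used may match several transcripts of the gene. A second probe set differed by 0.36 and the remaining one, of lower level, by -0.16, and neither passed. The probe sets of Mdm2 averaged together gave a difference of 0.31 (limma adjusted p = 0.0774).

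Ppm1d, which removes phosphates from p53 and its upstream kinases, stood at 9.02, 8.85 and 9.12 in the haploid lines and at 8.68, 9.45 and 9.41 in the diploid samples. The ranges overlapped, because diploid 1 lay below all haploid values. Its difference of -0.18 had a 95% interval from -0.69 to 0.32 (limma adjusted p = 0.595). The second probe set of Ppm1d differed by -0.46 and did not pass (limma adjusted p = 0.0697 over all probe sets). Ppm1d lies on chromosome 11, whose bright genes differed by a median of -0.27, and with each chromosome's shift subtracted Ppm1d differed by 0.09.

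Among 7 genes of cell cycle arrest and growth control, Btg2 and Plk2 rose and the other 5 did not pass. Btg2, an antiproliferative adaptor of mRNA deadenylation, stood at 10.82, 11.45 and 10.85 in HAP1, HAP2 and HTG1 and at 10.08, 9.65 and 9.49 in the diploid samples. It was lowest in diploid 3 and highest in HAP2, with no overlap. The difference was 2.46-fold (log2 1.30 ± 0.22, limma adjusted p = 0.0116). Its second probe set differed by 0.82, with a limma adjusted p just above the threshold. Without diploid 2 or diploid 3 the limma adjusted p of Btg2 was 0.0503 and 0.0549.

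Plk2, a polo-like kinase of centriole duplication and stress response, read differently by its 2 probe sets. The brighter one stood at 10.45, 10.68 and 10.54 in the haploid lines and at 9.37, 9.88 and 9.77 in the diploid samples. That is a 1.85-fold increase (log2 0.89 ± 0.15, limma adjusted p = 0.0116) with no overlap, lowest in diploid 1. The dimmer probe set went the other way, with a haploid mean of 5.53, a diploid mean of 6.57 and a difference of -1.05 (limma adjusted p = 0.00729 over all probe sets). Their average differed by -0.079 (limma adjusted p = 0.672), so the direction of Plk2 depends on the probe set.

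Cdkn1a encodes p21, the inhibitor of cyclin-dependent kinases through which p53 stops the cell cycle. It stood at 11.72, 12.52 and 12.00 in HAP1, HAP2 and HTG1 and at 11.75, 11.32 and 11.29 in the diploid samples. HAP1 lay just below diploid 1, so the groups overlapped, and HAP2 was well above the rest. The difference of 0.63 ± 0.22 (95% interval 0.10 to 1.16) had a limma adjusted p of 0.108, and the second probe set of Cdkn1a differed by 0.76 (0.0814). With arrays weighted by their fit, Cdkn1a passed with a difference of 0.80 (limma adjusted p = 0.0353).

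The RNA-binding zinc finger protein Zmat3 stood at 11.40, 11.72 and 11.36 against 11.21, 11.11 and 10.78. These groups did not overlap, yet the difference of 0.46 ± 0.15 had a limma adjusted p of 0.0889, and 0.0358 with array weights. Sertad3, a transcriptional coregulator, differed by 0.32 (0.226). The remaining pair lay slightly below 0: cyclin G1, Ccng1, which recruits a phosphatase to Mdm2, differed by -0.14 (0.462), and the microtubule-binding G2 regulator Gtse1 by -0.23 (0.256). Ccng1 lies on chromosome 11 and differed by 0.13 with the chromosome's shift subtracted. The other probe sets of Ccng1 differed by 0.16 and 0.03, and neither passed, so its sign depends on the probe set.

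Of 4 genes of death receptors and their signalling, Eda2r rose. Eda2r, the receptor for ectodysplasin A2, stood at 10.05, 10.12 and 10.16 in the haploid lines and at 9.35, 9.09 and 9.01 in the diploid samples. The 3 lines were close to each other and well above every diploid value. The difference was 1.95-fold (log2 0.96 ± 0.11, limma adjusted p = 0.00413). Eda2r is the one X-linked member, and bright X-linked genes as a whole differed by a median of 0.77. With the X chromosome's shift subtracted Eda2r differed by 0.19 and did not pass (limma adjusted p = 0.299).

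The TRAIL receptor Tnfrsf10b stood at 6.48, 7.37 and 6.96 in the haploid lines and at 6.58, 5.93 and 5.96 in the diploid samples. HAP1 lay below diploid 1, so the groups overlapped, and the difference of 0.78 ± 0.26 did not pass (limma adjusted p = 0.0921). It passed without HAP1 (1.01, limma adjusted p = 0.0417) and with array weights (0.98, 0.0275). Pidd1, the scaffold that activates caspase-2, differed by 0.20 (0.215). Fas was dim, at 4.95, 4.94 and 4.70 in the haploid lines and no higher than 5 in the diploid samples, and differed by -0.02 (95% interval -0.30 to 0.27).

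Among 8 measured genes of mitochondrial and effector apoptosis, Perp, Phlda3, Bbc3 and Trp53inp1 rose. Perp, a tetraspan protein of desmosomes and apoptosis, stood at 9.50, 10.53 and 9.73 in HAP1, HAP2 and HTG1 and at 8.04, 8.99 and 8.65 in the diploid samples. It varied by about a unit within each group but did not overlap between them. The difference was 2.56-fold (log2 1.36 ± 0.32, limma adjusted p = 0.0342). The call was lost without diploid 1, 2 or 3, HAP2 or HTG1 in turn (limma adjusted p = 0.0538 to 0.102).

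Phlda3, a repressor of the kinase Akt at membranes, had the tightest groups of these. It stood at 10.69, 10.84 and 10.84 in the haploid lines and at 10.21, 10.14 and 10.19 in the diploid samples, a 1.52-fold increase (log2 0.61 ± 0.09, limma adjusted p = 0.00765). Its limma adjusted p stayed at or below 0.0389 without any 1 array.

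Bbc3 and Pmaip1 encode Puma and Noxa, BH3-only proteins that switch on mitochondrial apoptosis. Bbc3 stood at 9.05, 9.34 and 9.28 against 8.86, 8.69 and 8.81, 1.35-fold higher (log2 0.43 ± 0.11, limma adjusted p = 0.0438). The call of Bbc3 was lost without any array except HAP1 (0.0619 to 0.135), and also after quantile normalization, with array medians aligned, with trend and robust settings and with chromosome shifts subtracted. Pmaip1 had the largest difference of all members and did not pass. It stood at 10.02, 8.16 and 8.74 in HAP1, HAP2 and HTG1 and at 7.78, 7.29 and 7.24 in the diploid samples, with HAP1 more than a unit above the other lines. The groups did not overlap, and the difference of 1.54 ± 0.44 had a limma adjusted p of 0.0599. Without HAP1 it was 1.01 and passed (0.0409), and without HAP2 it was 1.95 and passed (0.0358).

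Trp53inp1, a stress protein that acts in autophagy and as a cofactor of p53, stood at 12.53, 12.65 and 12.74 against 12.28, 12.26 and 12.16. It was 1.33-fold higher (log2 0.41 ± 0.10, limma adjusted p = 0.033), the smallest of the 13 increases. The call was lost without any array except HAP1 (0.0528 to 0.117), and also with quantile normalization, averaged probe sets or chromosome shifts subtracted. Its dimmer probe set differed by 0.06. Apaf1, the core of the apoptosome, differed by 0.20 (0.302), the exonuclease Aen by 0.10 (0.64) and Ei24, an autophagy protein of the endoplasmic reticulum, by -0.08 (0.734). None of these 3 passed, and their haploid and diploid values overlapped. One of the other probe sets of Aen differed by -0.999 and just missed the threshold.

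**Figure D2:**
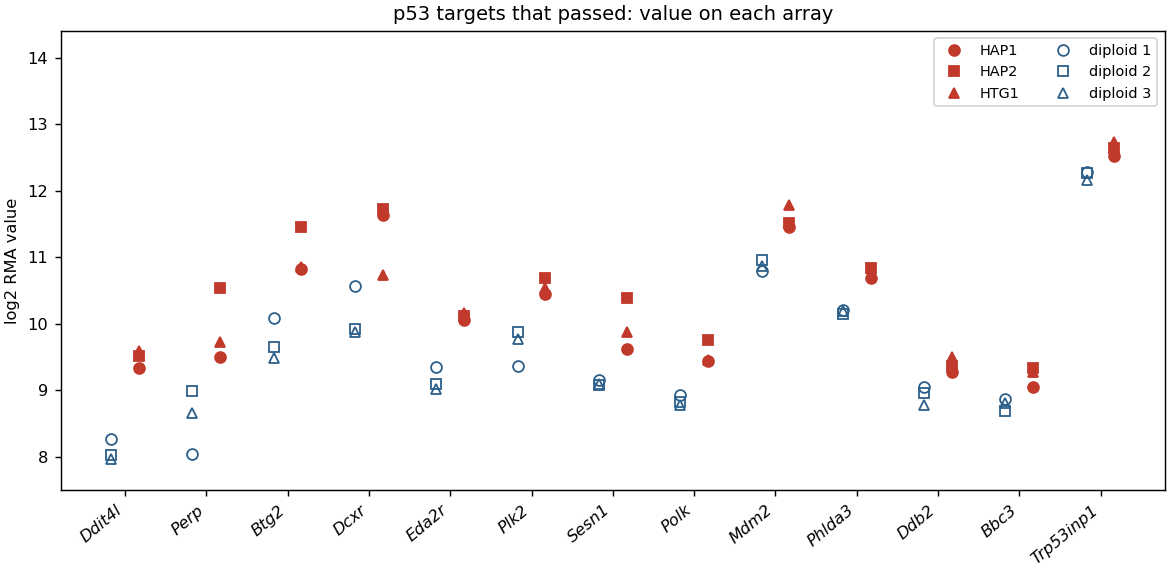
Log2 RMA value on each array for the 13 members that rose, ordered by difference, with filled red symbols for the haploid lines and open blue symbols for the diploid samples (n = 3 each). The red symbols lie above all blue ones in each of the 13 genes, with HAP2 the highest line in 8 of them and diploid 1 the highest diploid sample in 10.

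Of 5 genes of DNA repair and nucleotide supply, Polk and Ddb2 rose. Polk, a polymerase that copies past damaged bases, stood at 9.44, 9.76 and 9.46 in the haploid lines and at 8.92, 8.82 and 8.77 in the diploid samples. It was 1.64-fold higher (log2 0.72 ± 0.12, limma adjusted p = 0.0103) with no overlap, and its limma adjusted p was 0.0518 without diploid 3. Ddb2, which recognises ultraviolet damage, stood at 9.27, 9.36 and 9.50 against 9.05, 8.96 and 8.78, a 1.36-fold increase (log2 0.45 ± 0.11, 0.0405). The call of Ddb2 was lost without any array except diploid 1 (limma adjusted p = 0.0507 to 0.132), and with the same 3 settings as that of Trp53inp1.

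The other repair genes showed no difference past the spread of the arrays. Xpc, the partner of Ddb2 in damage recognition, differed by 0.07 (95% interval -0.41 to 0.54), and the endonuclease Ercc5 by 0.04 (-0.47 to 0.56). Rrm2b, the p53-inducible subunit of ribonucleotide reductase, stood at 8.83, 9.61 and 8.89 against 9.04, 8.67 and 8.70. Its difference of 0.30 (limma adjusted p = 0.397) rested on HAP2, without which it was 0.05.

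Of 4 measured genes of metabolism and stress signalling, 3 rose and include 2 of the 4 members that passed at 2-fold or more. Ddit4l, an inhibitor of mTOR signalling, stood at 9.33, 9.52 and 9.59 in the haploid lines and at 8.26, 8.02 and 7.97 in the diploid samples. Every haploid value was more than a unit above every diploid one. The difference was 2.63-fold (log2 1.39 ± 0.12, limma adjusted p = 0.00194), and all 3 of its probe sets passed, with differences from 0.99 to 1.39.

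Dcxr, a reductase of dicarbonyls and xylulose, stood at 11.63, 11.72 and 10.73 in HAP1, HAP2 and HTG1 and at 10.57, 9.92 and 9.88 in the diploid samples. HTG1 lay close to diploid 1, while HAP1 and HAP2 were about a unit higher. The difference was 2.36-fold (log2 1.24 ± 0.30, limma adjusted p = 0.0374). It did not pass without diploid 2 or 3, HAP1 or HAP2 (0.0853 to 0.131), and was 1.55 without HTG1. Dcxr lies on chromosome 11, and with that chromosome's shift subtracted it differed by 1.51.

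The sestrins Sesn1 and Sesn2 restrain the kinase complex mTORC1 and protect against oxidants. Sesn1 stood at 9.62, 10.39 and 9.87 in the haploid lines and at 9.15, 9.07 and 9.09 in the diploid samples, which were nearly equal. It was 1.81-fold higher (log2 0.86 ± 0.19, limma adjusted p = 0.028), and 3 of its 4 probe sets passed, with differences of 0.86, 0.97 and 1.05. The call was lost without diploid 1, 2 or 3 or HTG1 (0.0537 to 0.099). Sesn2 stood at 9.84, 9.78 and 9.84 against 9.87, 10.22 and 10.23, and its difference of -0.29 did not pass (0.163). It passed as lower without diploid 1 (-0.41, limma adjusted p = 0.0404) and with array weights (-0.37, 0.0474), and its second probe set differed by 0.25. Ano3, an anoctamin membrane protein, was dim and differed by 0.33 (0.188).

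Of the 31 measured members, 19 had more than 1 probe set, and in 12 of these all probe sets differed in 1 direction. Over all 59 probe sets of the members, 16 passed as higher and 1 as lower, the dimmer one of Plk2, when every probe set of the array was fitted on its own. The probe set of lowest mean level differed by -0.16 for Mdm2 and by 0.06 for both Sesn1 and Trp53inp1, and did not pass in any of the 3 genes.

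**Figure D3:**
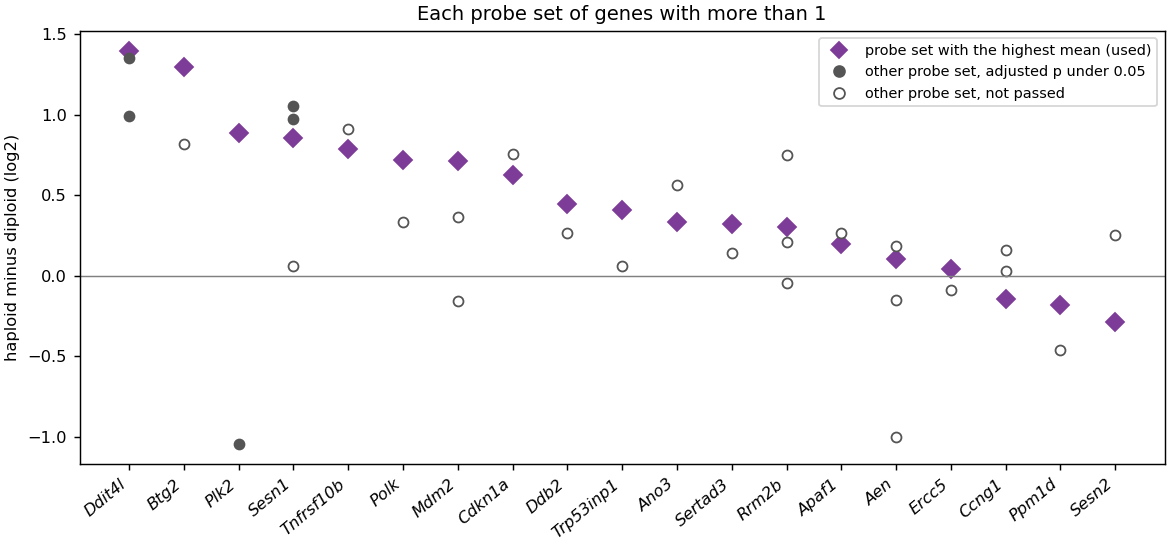
Haploid minus diploid difference (log2) of every probe set of the 19 members with more than 1, where diamonds mark the probe set used for the gene and filled circles another probe set with an adjusted p under 0.05. The probe sets of Ddit4l lie together between 0.99 and 1.39, whereas those of Plk2 lie at 0.89 and -1.05.

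The haploid arrays differed in how high the members stood. With 1 array per line, a difference between lines cannot be told from one between arrays or cultures. Over the 31 members, the median deviation from each gene's mean on the 6 arrays was 0.11 in HAP1, 0.33 in HAP2 and 0.13 in HTG1. It was -0.14 in diploid 1, -0.27 in diploid 2 and -0.27 in diploid 3. HAP2 was the highest of the 3 lines for 16 members and diploid 1 the highest diploid sample for 20. By role, HAP2 stood apart for repair (0.52, against 0.11 in HAP1 and -0.04 in HTG1) and for metabolism (0.80, against 0.32 and 0.16).

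HTG1 was set against HAP1 and HAP2 because of its different background and passage, in a fit where the single HTG1 array was assumed to vary like the others. Of the 31 members, 0 passed in either direction, against 0.374% of all genes. The members with the largest differences were Dcxr, lower in HTG1 by a difference of -0.95 ± 0.30 (limma adjusted p = 0.404), and Ercc5, at -0.62 ± 0.25 (0.523). Mdm2 was 0.31 ± 0.14 higher in HTG1 (0.601). With 1 array on one side these intervals are wide and do not show that the lines were alike.

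Other genes of the p53 pathway were read from 3 further lists, also chosen with earlier results of these data known. Among 28 measured known targets outside the member list, 7 rose (25%) and 0 fell, with a median difference of 0.24 and 22 above 0. Over all genes 7.92% rose and 6.96% fell, and over bright genes 12.7% and 9.21%. The detoxifying enzyme Ephx1 stood at 10.43, 11.31 and 11.02 in the haploid lines and at 9.74, 9.68 and 9.76 in the diploid samples (difference 1.19 ± 0.21, limma adjusted p = 0.0139). Zfp365, known for genome stability, differed by 1.13 ± 0.26 (0.0321), the adenylate kinase Ak1 by 0.82 ± 0.10 (0.00495) and Pml, which organises nuclear bodies, by 0.76 ± 0.11 (0.00635). Pml held without any 1 array. Ephx1 was lost without diploid 2 or 3 (0.0563 and 0.059), and Zfp365 without any array except HAP1 (0.0676 to 0.102). Ak1 held without any 1 array, but did not pass with its probe sets averaged (0.46, limma adjusted p = 0.085) or once probe sets that may match several transcripts were left out (0.11, 0.819).

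Upstream regulators and cofactors of p53 were spread around 0. Of 27 measured, 2 rose (7.41%) and 1 fell (3.7%), with a median difference of 0.02. Neither share was above that of all genes, 7.92% higher and 6.96% lower. Mdm4, a partner of Mdm2 that inhibits p53, differed by 0.43 ± 0.11 (limma adjusted p = 0.0398) and lost its call without any array except HAP1 (0.0728 to 0.134), and with averaged probe sets, without probe sets that may match several transcripts or with chromosome shifts subtracted. The mitotic kinase Aurka differed by 0.47 ± 0.09 (0.0146), but by -0.23 (0.327) with its probe sets averaged. Aurka was also lost without diploid 2, diploid 3 or HAP2 (0.0539 to 0.0624). The checkpoint kinase Chek1, which phosphorylates p53, fell, with values of 10.79, 10.84 and 10.82 against 11.33, 11.25 and 11.27 (difference -0.47 ± 0.08, 0.0141, and 0.0589 without diploid 3). It did not pass with its 5 probe sets averaged (0.135).

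Cell cycle genes that p53 lowers through p21 and the DREAM complex were measured for 18 of 20 listed. Of these 5 rose (27.8%, against 7.92% of all genes) and 1 fell (5.56%, against 6.96%), with a median difference of 0.08. Among bright genes 12.7% rose and 9.21% fell. The transcription factor E2f1 differed by 0.67 ± 0.17 (limma adjusted p = 0.0378), the spindle midzone protein Prc1 by 0.42 ± 0.11 (0.0396) and the mitotic kinase Cdk1 by 0.41 ± 0.10 (0.0375). None of these 3 passed in every omission of an array: E2f1 was lost without diploid 2 or 3, HAP1 or HAP2 (0.0872 to 0.131), and Prc1 and Cdk1 without any array except diploid 1 (0.0616 to 0.129 and 0.0825 to 0.123). Prc1 and Cdk1 were also lost with chromosome shifts subtracted, and E2f1 with quantile normalization or averaged probe sets. The helicase subunit Mcm5 fell, at -0.59 ± 0.10 (0.0118, and 0.055 without diploid 3). Mcm5 lies on chromosome 8, whose bright genes differed by a median of -0.32, and it differed by -0.26 (0.13) with that shift subtracted. It also did not pass without probe sets that may match several transcripts (-0.38, limma adjusted p = 0.096).

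**Figure D4:**
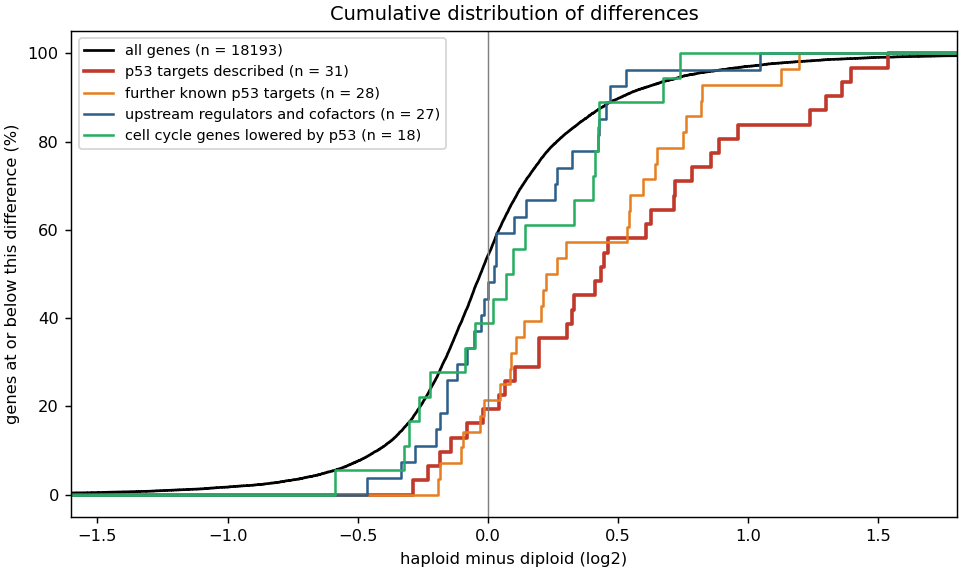
Cumulative share of genes (%) at or below each haploid minus diploid difference (log2) for all 18193 genes, the 31 measured p53 targets and the 3 further lists of the pathway. At the midpoint the curve of the 31 targets lies furthest to the right, with its median at 0.43, against 0.24 for the further targets and -0.03 for all genes.

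Several measures of the samples moved with ploidy beside these differences, and their part in them was not tested. The array medians lay between 6.31 and 6.34. RNA quality was read from the actin controls, as the signal at the 3' end less that at the 5' end (log2). This was 0.18 to 0.24 for haploid RNA and 0.34 to 0.46 for diploid RNA. All 10 ES cell markers were well expressed in both groups, 3 rose (30%, against 7.92% of all genes and 12.7% of bright genes) and 0 fell. Klf4 rose by 0.68, Nanog by 0.47 and Pou5f1 by 0.40, and of these Klf4 alone held without any 1 array. Another 2 lay below 0 and did not pass. Utf1 stood at 10.96, 11.49 and 11.81 against 11.97, 11.98 and 12.19, with no overlap. Its difference was -0.625 (limma adjusted p = 0.0909), and that of Zfp42 was -0.25 (0.203). Nanog was lost without diploid 2 or 3, HAP2 or HTG1 (limma adjusted p = 0.0522 to 0.0906) and Pou5f1 without any array except diploid 1 (0.0503 to 0.0874) or with chromosome shifts subtracted. Of 12 fibroblast markers, which feeder cells would carry, 10 lay below 0 in the haploid lines and 1 fell (8.33%, against 6.96% of all genes). Fbln2 and Loxl1 lay above 0, by 0.68 and 0.32, and did not pass. That gene was the collagen Col1a2, at 6.36, 5.73 and 6.17 against 9.34, 8.41 and 8.38. The summed linear level of the 12 was 831 to 1163 in the haploid lines and 1209 to 2237 in the diploid samples, highest in diploid 1. This sum includes Col1a2 and weighs bright genes most, and it was not computed without Col1a2. The median deviation of the 12 from each gene's mean was -0.38 to -0.16 in the haploid lines and 0.01 to 0.56 in the diploid samples. The mean of Lum was dim in both groups. Of 6 primitive endoderm and 6 trophoblast markers 0 passed, with median differences of 0.05 and 0.01. Among them Gata4 differed by -0.06 (0.77), Sox17 by 0.01 (0.984), Eomes by -0.07 (0.779) and Tfap2c by 0.53 (0.149, passing without HTG1 at 0.0449 and with array weights at 0.0478).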

How the data were processed

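Total RNA was hybridised to 1 Affymetrix array per sample, per the labels. The deposited table holds log2 values of 45101 probe sets, made by the authors with RMA, as named in the submitters' processing notes. RMA corrects background, equalises the distributions of arrays and summarises probes, and it compresses differences of dim genes. Not given in the sources used here are its software and settings. The number of arrays limits precision.

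Gene symbols came from GEO's platform annotation (34945 probe sets with 1 symbol, 932 with several, 9160 with none, 64 controls left out), and 34741 matched RefSeq (GRCm38.p6) by Entrez number. The comparison used lmFit and eBayes (limma 3.58.1, R 4.3.3; two-sided, no filter, no covariate) with Benjamini-Hochberg adjustment over 18193 genes. A bare value in brackets after a gene's difference is its limma adjusted p. A gene is called dim near or under 4.80, the lowest lower quartile of an array. Bright genes are those above the median level. The fit was tested on simulated data. Members and lists were chosen with earlier results of these data known. All measured members are named. Genes of the other lists are named by size of change among those that passed, at most 4 a list, or by mean level where none passed. The alternatives are described in the closing section.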

Additional observations from a re-analysis of the deposited data

How the results depend on the processing

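No paired analysis was possible because the haploid titles name lines and the diploid titles number samples, with nothing that ties one to the other. The number of members that passed as higher (13 of 31) was 10 after quantile normalization, 12 with array medians aligned, 9 with a gene's probe sets averaged, 11 of 29 without probe sets that may match several transcripts, 12 with trend and robust settings, 17 with array weights, 9 with each chromosome's median shift subtracted and 4 with an added 2-fold threshold. Without any 1 array it was 4 to 13. The number that passed as lower was 0, except 1 (Sesn2) with array weights and 1 without diploid 1, so 0 to 1 over the omissions. The median difference of the members, 0.43, was 0.31 with probe sets averaged and 0.33 with chromosome shifts subtracted. It was 0.37 after quantile normalization, 0.48 with array weights and 0.37 to 0.50 over the omissions. Among named genes that passed, signs reversed for Mdm2 without probe sets that may match several transcripts (-0.16) and, with probe sets averaged, for Plk2 (-0.079) and Aurka (-0.23). In that setting Mdm2 was read from its probe set of lowest level, with means of 5.26 (haploid) and 5.42 (diploid). It did not pass there (limma adjusted p = 0.419). Over all genes the 2707 calls became 970 without diploid 3, 1196 without diploid 2, 1429 without HAP2 and 654 with a 2-fold threshold. Of all calls 53.2% were higher, against 42.6% with chromosome shifts subtracted. Each omission removed 1 array, and calls over all genes ran from 970 without diploid 3 to 2428 without HAP1. Causes of these changes were not tested.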
